A study of Arabidopsis thaliana with 4 samples.

Results

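The genes described here are 150 nuclear genes of Arabidopsis thaliana that were bright in control seedlings and read lower on both arrays of aluminium-treated seedlings. They were selected on the very values shown. A probe set of the ATH1 array, an Affymetrix array of short probes, was eligible when it was paired with exactly 1 nuclear gene and both control arrays read above 600 intensity units. For each eligible probe set a gap was taken as the lower control minus the higher aluminium value, both on the scale log2(intensity + 16), and the 150 with the largest positive gap were kept. These were 150 of 2605 eligible probe sets, of 13415 paired with 1 nuclear gene, and of 22746 plant probe sets on the array. Because the rule used the same contrast, the difference between aluminium and control is given below as a description. The fit over all probe sets includes the members, and its result for them is no independent test.

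The aluminium group was whole seedlings, lifted from agar plates with short roots and submerged for 16 h in flasks of a diluted Murashige and Skoog liquid medium with 50 µM aluminium. The control group was named so in the sample titles, and the extraction notes speak of a mock treatment. The treatment text of the control samples is worded like that of the aluminium samples and also names aluminium, so the groups rest on the titles, and every aluminium minus control value below does too. Both groups had 1% sucrose in the medium, carried no named mutation or transgene, and the ecotype and age are not given in the labels. Each group had 2 arrays, each with RNA of 100 pooled seedlings, stated by the labels to be biological replicates. A value per array therefore averages over seedlings, roots and shoots together.

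Aluminium ions become soluble in acid soil and are toxic to the root tip, where they bind the pectin of the cell wall and stop elongation. Plants respond by releasing organic acids, by changing their wall polymers and by altered hormone signalling. In seedlings many nuclear transcripts of high abundance serve photosynthesis in the shoot and protein synthesis in growing tissue, and both are known to be sensitive to stress.

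Gaps among the 150 members ran from 0.69 to 3.16 with a median of 0.96, so that 72 members had a gap of at least 1 on the log2 scale, 18 of at least 2 and 2 of at least 3. The log2 difference of the group means, aluminium minus control, ran from -3.57 to -0.75 with a median of -1.91, against a median of -0.25 over all 2605 eligible probe sets. The median member read 192 and 403 on the aluminium arrays (replicates 1 and 2), against 1065 and 904 on the control arrays. The median eligible probe set read 937 and 995 on the aluminium arrays, against 1060 and 1037 on the control arrays. The members therefore stood at the level of the other eligible probe sets in controls, and below it on both aluminium arrays, as the rule requires.

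**Figure D1:**
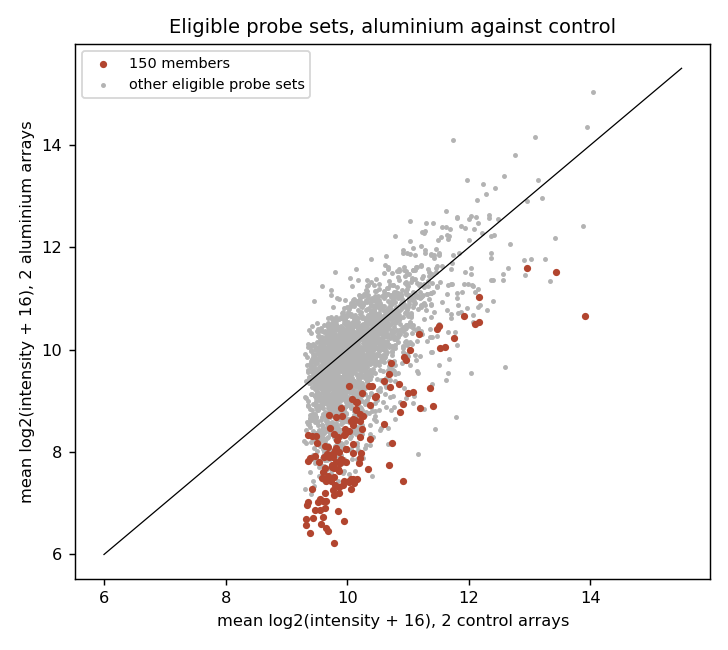
Mean log2(intensity + 16) of the 2 aluminium arrays (vertical axis) against that of the 2 control arrays (horizontal axis) for the 2605 eligible probe sets. Red points are the 150 members, grey points the other eligible probe sets, and the line marks equal values. All members lie below the line. Their control levels are mostly not far past the minimum, like those of the eligible probe sets. Since members were chosen by gap and not by means, other probe sets lie as far below the line, down to a difference of -3.20.

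Most members were only moderately bright, as were most eligible probe sets. The lower control array was under 1000 for 99 members (66%), against 61.6% of the eligible probe sets. It was above 2000 for 15 members (10%), against 6.64% of the eligible probe sets. Both aluminium arrays were still above 600 in 18 members. As background level served the 95th percentile of 27 bacterial probe sets on the same array, which was 422 to 586. Of the members, 86 were above it on neither aluminium array, 43 on 1 and 21 on both. Over all 2605 eligible probe sets these numbers were 130, 753 and 1722. The rule favours low aluminium values, so the members' numbers were partly fixed by it. All 150 members and all 2605 eligible probe sets were above it on both control arrays, since the control minimum of 600 exceeded the level. This level is a strict cut, and the median plant probe set (327 to 351) lay below it. The median bacterial probe set read 139 and 73.5 on aluminium replicates 1 and 2. How much of a value under the level is signal was not tested. For the 86 members the aluminium level was not distinguished from background by this cut. The size of their differences is given as measured. For dim members it depends on the constant added before the logarithm. GPDHC1, the member with the lowest aluminium mean, had -3.88 with 1 added and -2.91 with 64 added. AT2G45180, the brightest member, had -3.26 and -3.21.

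The aluminium arrays differed from each other more than the control arrays did. The median SD between the 2 aluminium arrays was 0.65 on the log2 scale over the members (0.48 over the eligible probe sets), and between the 2 control arrays it was 0.20 (0.27). Aluminium replicate 1 read below aluminium replicate 2 in 112 of 150 members, which is 74.7%, against 57.8% of the eligible probe sets. In 45 members (30%) the aluminium arrays were over 3-fold apart, against 19.1% of the eligible probe sets. Replicate 1 was the lower in 43 of these 45, and in 407 of the 498 such eligible probe sets. No member had control arrays over 3-fold apart, against 1.38% of the eligible probe sets. The rule takes the lower control, so it favours members with close control arrays. Aluminium minus control had a median of -2.38 for the arrays numbered 1 and -1.20 for those numbered 2. The members thus read lower on both aluminium arrays, and further below on the first.

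Aluminium replicate 1 also stood apart in its own control probe sets. Its hybridization controls, sequences added to every hybridization mix, had a geometric mean of 131442, while the other aluminium array had 11226 and the control arrays had 51057 and 6339. For GAPDH, signal near the 3′ end over signal near the 5′ end, a ratio that rises as RNA is degraded or copied short, was 3.52 and 1.70 on the aluminium arrays, against 1.71 and 1.44 on the control arrays. That of actin was 6.01 and 3.07 with aluminium, against 2.78 and 1.94 in controls. For ubiquitin it was 4.29 and 2.21 with aluminium, against 3.29 and 2.80 in controls, so aluminium replicate 2 lay below both controls there. Correlations across all plant probe sets were 0.581 between the aluminium arrays, 0.674 between the control arrays and 0.770 between aluminium replicate 2 and control replicate 2. The part of array quality in the members' differences was not tested.

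A limma fit over all 22746 plant probe sets called none at an adjusted p of 0.05, so 0% of the probe sets and 0 of the 150 members passed. The smallest adjusted p over all probe sets was 0.966. Before adjustment 1084 probe sets, 548 of them lower with aluminium, had a p under 0.05. With 2 arrays a group, both aluminium arrays lay below both control arrays in 16.2% of all plant probe sets and in 718 (27.6%) of the eligible ones. Group means at least 2-fold lower without overlap were found in 14.5% of the eligible probe sets and in 146 of the 150 members, a count fixed largely by the rule.

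The same count was taken for every other way of dividing the 4 arrays into a lower and a higher pair, with the higher pair held above 600. With both aluminium arrays lower, 150 of 2605 eligible probe sets (5.76%) had at least the gap of the last member. With both control arrays lower it was 144 of 2457 (5.86%). With the arrays numbered 1 lower it was 243 of 2787 (8.72%), and with the arrays numbered 2 lower 198 of 2382 (8.31%). With aluminium replicate 1 and control replicate 2 lower it was 147 of 2618 (5.61%), and with aluminium replicate 2 and control replicate 1 lower 102 of 2379 (4.29%). The number of probe sets with so large a gap was therefore no greater between the treatments than between the replicate numbers. Gaps of at least 2 numbered 18 for aluminium below control, 16 for control below aluminium, and 13 to 46 over the other 4 divisions, whose largest gaps ran from 2.84 to 4.03.

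**Figure D2:**
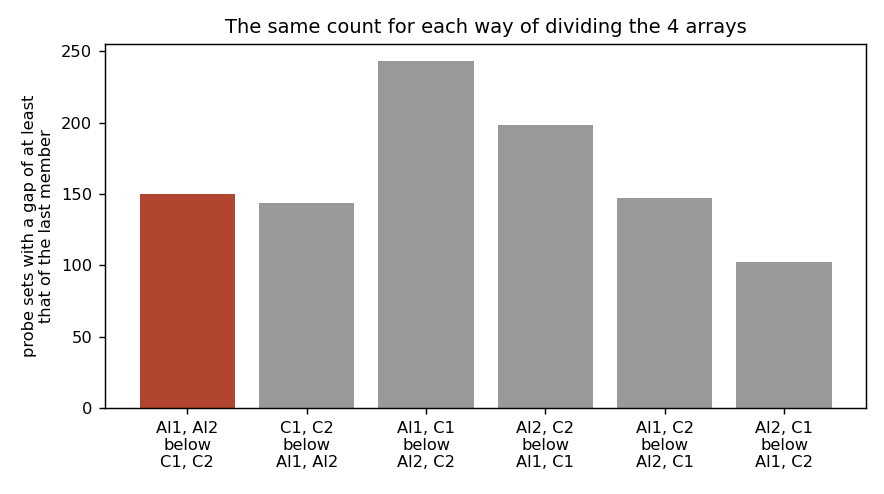
Number of eligible probe sets with at least the gap of the last member (vertical axis) for each of the 6 ways of setting a pair of arrays below the other pair. Al1 and Al2 are the aluminium arrays, C1 and C2 the control arrays; the red bar (150, aluminium below control) lies inside the range of the grey bars, 102 to 243.

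Of the 12 members with the largest gap, 4 were given a role. AT1G12010 encodes an ACC oxidase, the type of enzyme that makes ethylene in its last step, and had the largest gap. Its intensity was 123 and 197 with aluminium, against 1889 and 1969 in controls, a log2 difference of -3.50. GPDHC1, a cytosolic glycerol-3-phosphate dehydrogenase, read 41.1 and 81.9 under aluminium, against 834 and 907 in control seedlings (-3.57). Both had control arrays that nearly coincided, and aluminium arrays below the background level. AT2G45180, a small secreted protein of the lipid-transfer type, stood at 1324 and 1958 in treated seedlings, against 15556 and 15267 in controls (-3.25). It was the brightest member, and all 4 of its values lay above background. AT3G60860, a BIG-type exchange factor that activates ARF GTPases in vesicle budding, read 54.0 and 103 under aluminium, against 699 and 899 in control seedlings (-3.15).

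The other 8 of the 12 are given by symbol or locus without a role. AT1G75870 stood at 77.9 and 66.0 in treated seedlings, against 899.9 and 719.7 in controls (-3.23). AT1G32690 read 86.9 and 75.9 under aluminium, against 729 and 766 in control seedlings (-2.97). AT1G47340 stood at 83.1 and 58.7 in treated seedlings, against 619 and 693 in controls (-2.96). In these 3 the aluminium arrays lay within 1.5-fold of each other, as did the control arrays. NDP1 read 178 and 149 under aluminium, against 1087 and 1179.6 in control seedlings (-2.68). AT1G61700 had 113 and 72.1 with aluminium, against 668 and 872 in controls (-2.87). AT2G13350 had 110.5 and 98.4 with aluminium, against 627 and 961 in controls (-2.72). Here too no aluminium value came near a control value, as follows from their choice by large gap. AT1G30290 had 53.9 and 113 with aluminium, against 631 and 619 in controls (-2.76), and AT3G15470 had 172 and 120.3 with aluminium, against 877 and 967 in controls (-2.55). Across all members, 41 had both pairs of arrays within 1.5-fold (27.3%), against 30.1% of the eligible probe sets.

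**Figure D3:**
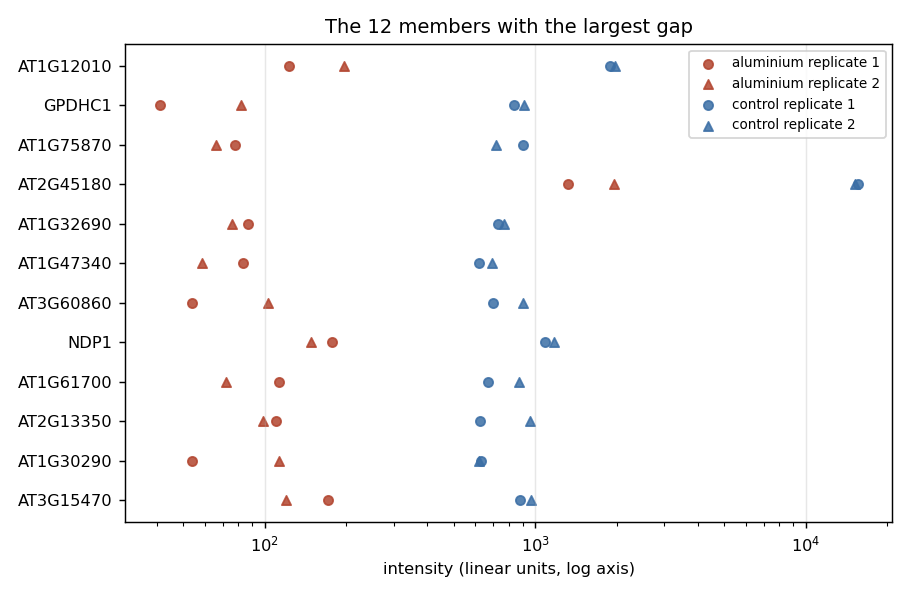
Intensity (log axis) on each array for the 12 members with the largest gap, ordered from the top by gap. Red marks are aluminium and blue marks control, circles replicate 1 and triangles replicate 2; every red mark lies well to the left of the blue marks in its row, and only AT2G45180 keeps aluminium values above 1000.

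A role was given to 57 members from general knowledge of Arabidopsis genes, and 93 were left without one. Some of the 93 may have a known role, so group sizes count only the roles given. The roles were assigned after the values had been seen, so the groups below describe the members and were not tested. Only members were given roles, so the number of members in a role group has no share of eligible probe sets beside it. Nothing is read from those numbers. The median log2 difference was -1.87 in the 93 without a role, and between -2.32 and -1.61 in the 8 role groups. No role group thus lay far from the members as a whole. Listed function classes matched by gene symbols and synonyms left 138 members and 2378 eligible probe sets unclassed. Members were 2 of 4 eligible probe sets in carbon fixation, 2 of 10 in the light reactions and 3 of 27 in cell wall and surface, against 5.76% of all eligible probe sets. They were 1 of 5 in chlorophyll and isoprenoid synthesis, 1 of 14 in cytoskeleton and vesicle traffic and 1 of 18 in water and ion transport. In redox and detoxification they were 1 of 21, and in central metabolism 1 of 51. No other class held a member, the largest being protein turnover with 31 eligible probe sets. These classes hold too few probe sets to read a share from, and they missed most genes given a role below.

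**Figure D4:**
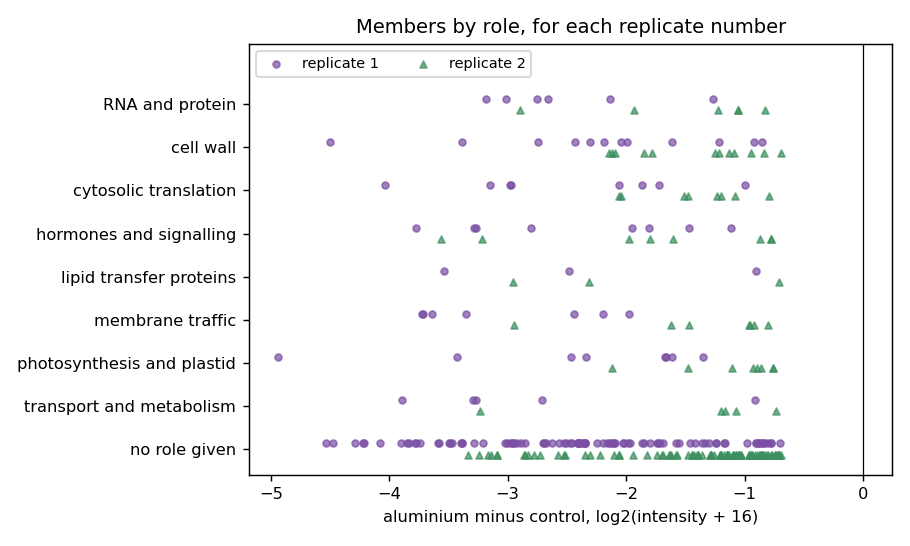
Log2 difference, aluminium minus control on the scale log2(intensity + 16), for each of the 150 members by role group, separately for the arrays numbered 1 (purple circles) and those numbered 2 (green triangles). The line marks no difference; the points of replicate 1 reach further from 0 in every row, with medians of -3.35 against -0.97 in membrane traffic and -2.01 against -0.91 in photosynthesis and plastid.

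Photosynthesis and plastid functions held 8 members, among them 5 of the 10 brightest in controls. RCA, Rubisco activase, which frees the carbon-fixing enzyme of bound sugar phosphates, stood at 2491 and 3421 in treated seedlings, against 12687 and 9585 in controls (-1.91). SBPASE, the sedoheptulose-bisphosphatase of the Calvin cycle, read 1835 and 2373 under aluminium, against 4709 and 4429 in control seedlings (-1.12). PSAN, the lumenal subunit N of photosystem I, stood at 3044 and 3119 in treated seedlings, against 9351 and 6745 in controls (-1.36). All 3 were far above background on every array, and their aluminium arrays lay close together. LHCB4.1, a minor antenna protein of photosystem II, read 52.3 and 662 under aluminium, against 2079 and 1275 in control seedlings (-2.93). Its aluminium arrays were among the furthest apart of all members, with a difference of -4.94 for the arrays numbered 1 and -0.93 for those numbered 2. AT1G51400, a small photosystem II protein, stood at 468 and 682 in treated seedlings, against 1530.2 and 3027 in controls (-1.90).

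The other members of this group were also bright. AT1G74470, the geranylgeranyl reductase that makes the phytyl tail of chlorophyll, read 232 and 1499.9 under aluminium, against 2654.5 and 2559 in control seedlings (-2.10). AT1G32470, an H protein of the glycine cleavage system of photorespiration (a mitochondrial complex), stood at 795 and 2746 in treated seedlings, against 4461 and 4675 in controls (-1.61). In both, aluminium replicate 2 lay much nearer to the controls than replicate 1. FUG1, a translation initiation factor of plastids, read 1548 and 1659 under aluminium, against 4953 and 3033 in control seedlings (-1.27), with tightly placed aluminium arrays.

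A list of 62 nuclear photosynthesis genes, used to mark shoot tissue, had 9 with a probe set of 1 gene, of which 4 were members. In 8 of the 9 both aluminium arrays lay below both controls, in 1 the groups overlapped, and the median log2 difference was -1.36. Over the eligible probe sets, 27.6% lay below control in this way and the median was -0.25. The 4 members among the 9 had to lie below, so the count was partly fixed by the rule. Their summed intensity was 17721 and 30540 on the aluminium arrays, against 64399 and 53083 on the control arrays. PRK, the phosphoribulokinase of the Calvin cycle, was no member but ranked 165th by gap, at 2454 and 4897 with aluminium, against 12298 and 7727 in controls. ATPC1, a subunit of the plastid ATP synthase, stood at 3017 and 7195 in treated seedlings, against 12719 and 9327 in controls. LHCB4.2, the close relative of LHCB4.1, read 719 and 2970 under aluminium, against 4947 and 3737 in control seedlings. In these 3 both aluminium arrays lay below both controls, with aluminium replicate 2 the nearer. PSAE-1 of photosystem I had 2402 and 2501 with aluminium, against 2816 and 3711 in controls, and PSBW of photosystem II overlapped, at 1707 and 3402 with aluminium and 2794 and 6546 in controls.

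The few root markers measured were mixed. Of 21 listed, 4 were measured and none was a member; 1 lay below control without overlap (16.2% of all plant probe sets did) and 3 overlapped, with a median log2 difference of -0.41. The 1 below, AT3G49960, stood at 31.7 and 24.4 under aluminium and 36.0 and 33.2 in controls, under the background level on every array. Their summed intensity was 660 and 2267 with aluminium, against 1633 and 1778 in controls. PYK10, a root beta-glucosidase, stood at 389 and 976 in treated seedlings, against 1056 and 901 in controls, and EXPA7, a root-hair expansin that was also under background on every array, read 183 and 98.3 under aluminium, against 373 and 93.8 in control seedlings. The sum rests mostly on PYK10 and on EXPA18, another root-hair expansin, at 56.1 and 1168 under aluminium and 168 and 749 in controls. It was below control on aluminium replicate 1 and above it on replicate 2. Of 13 seed and pollen markers, AT5G20390 was measured, at 257 and 330.1 with aluminium, against 109 and 116 in controls, all below background. In whole seedlings, fewer shoot cells and less of these RNAs per cell cannot be told apart, and the part of tissue make-up in the members' values was not tested.

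**Figure D5:**
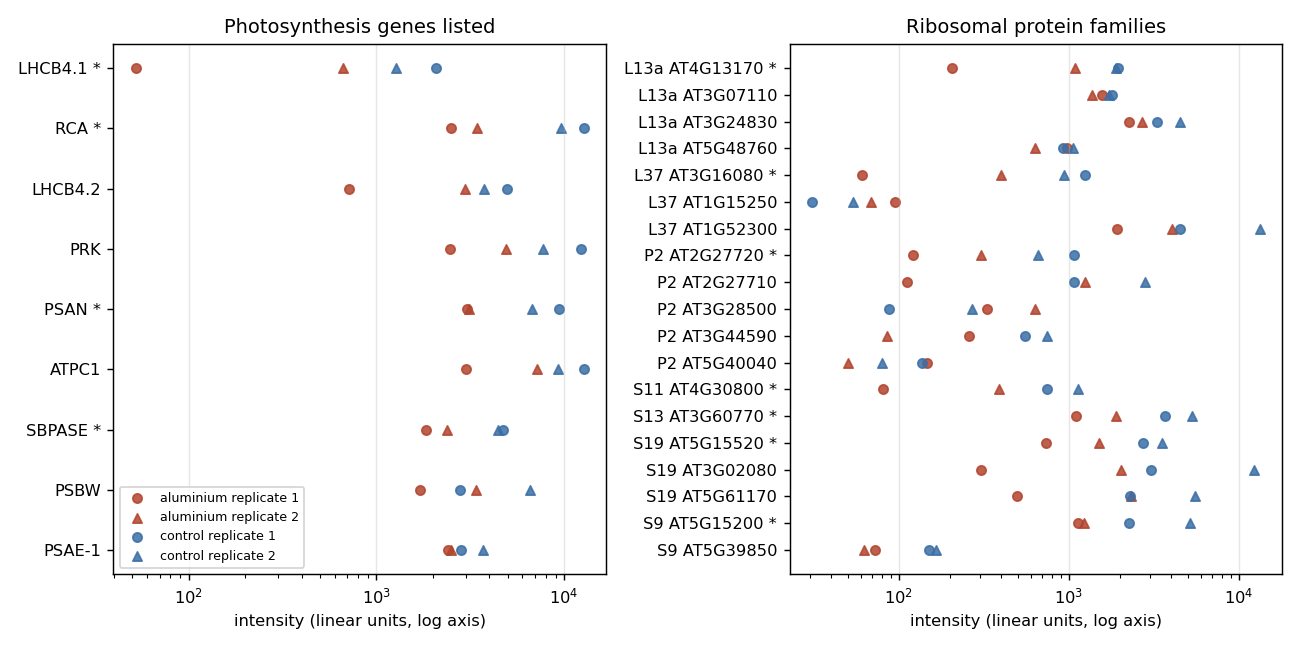
Intensity (log axis) on each array for the 9 measured photosynthesis genes (left) and for the measured genes of 7 ribosomal protein families (right). Red marks are aluminium and blue marks control, circles replicate 1 and triangles replicate 2, and a star marks a member; on the left all rows but PSBW have both red marks left of the blue ones, while on the right the unstarred relatives are mixed.

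Cytosolic translation held 8 members, 7 of them ribosomal proteins and 1 an initiation factor subunit. AT3G60770, a 40S ribosomal protein S13, stood at 1098 and 1889 in treated seedlings, against 3661 and 5302 in controls (-1.60). AT5G15520, a 40S protein S19, read 737 and 1504 under aluminium, against 2731 and 3552 in control seedlings (-1.55). AT5G15200, a 40S protein S9, stood at 1131 and 1229.8 in treated seedlings, against 2274 and 5185 in controls (-1.53). These 3 were among the 10 brightest members, and all of their aluminium values were above background. The other 4 ribosomal proteins were dimmer, with replicate 1 of aluminium much the lowest array. AT3G16080, a 60S protein L37, read 61.0 and 399 under aluminium, against 1250.1 and 935 in control seedlings (-2.62). AT4G13170, a 60S protein L13a, stood at 206 and 1088 in treated seedlings, against 1955 and 1894 in controls (-1.97). AT2G27720, an acidic stalk protein P2, had 122 and 306 with aluminium, against 1067 and 663 in controls (-2.03), and AT4G30800, a 40S protein S11, had 80.3 and 388 with aluminium, against 744 and 1137 in controls (-2.25). The initiation factor 3 subunit D gene AT5G44320 had its arrays spread the other way, at 555 and 229 with aluminium and 2363 and 995 in controls (-2.05).

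Arabidopsis ribosomal proteins come in families of near-identical genes, so probes for one gene may also bind another's transcripts. Of the 7 families with a member, 12 further genes were measured. Both aluminium arrays lay below both controls in 6 of these, above in 2, and the groups overlapped in 4; of the 7 with both controls above 600, 4 lay below. The shares over all features were 16.2% of plant probe sets and 27.6% of the eligible ones, and with so few genes nothing is read from the counts. The S19 gene AT3G02080 read 303 and 2036 under aluminium, against 3061 and 12325 in control seedlings, a larger difference of means than that of its relative among the members but a smaller gap. The L13a gene AT3G07110 stood at 1570.3 and 1374 in treated seedlings, against 1785 and 1719 in controls, and its relative AT5G48760 overlapped, at 977 and 631 with aluminium and 928 and 1056 in controls. The P2 gene AT3G28500 was higher with aluminium, at 329.8 and 629, against 88.0 and 270.0 in controls. This gene and the L37 gene AT1G15250 were the 2 that lay above, and both had controls under the background level. None of the 7 relatives with both controls above 600 lay above. That minimum selects for high controls, and no share over the eligible probe sets was counted, so nothing is read from it.

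Cell wall functions held 12 members by role, 7 of which act on pectin or belong to families that do. Pectin genes were not counted among the eligible probe sets, so these numbers carry no share to compare them with. AT1G02810, a pectin methylesterase, which frees the acid groups of pectin, read 48.8 and 152 under aluminium, against 661 and 699 in control seedlings (-2.74). AT3G47380, of the family of invertase and pectin methylesterase inhibitors, stood at 135 and 317 in treated seedlings, against 998 and 778 in controls, and AT1G62760 of the same family had 241 and 467 with aluminium, against 1258 and 767 in controls (-1.50). The enzyme type and its inhibitor type were thus both among the members. AT1G60590, a polygalacturonase-like protein, read 290.2 and 156 under aluminium, against 1201 and 744 in control seedlings (-2.07). AT5G48900, a pectate lyase that cuts pectin chains, stood at 189 and 279 in treated seedlings, against 1088 and 611 in controls (-1.76). The 2 pectin acetylesterases differed in how well their arrays met. AT1G57590 had 314 and 173 with aluminium, against 995 and 634 in controls (-1.70), whereas AT3G05910 had 59.9 and 533 with aluminium, against 1700.0 and 965 in controls (-2.67).

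The remaining wall members have other roles. XTH16, a xyloglucan endotransglucosylase that cuts and rejoins xyloglucan, read 665 and 270.0 under aluminium, against 2797 and 1227 in control seedlings (-2.08). GH9C2, a family 9 endoglucanase, stood at 664 and 777 in treated seedlings, against 1563 and 1726 in controls (-1.18). ATCSLC08, of the cellulose synthase-like C family that builds the xyloglucan backbone, read 208 and 421 under aluminium, against 1003 and 827 in control seedlings (-1.57). Of these, GH9C2 had the closest replicates. GME, a GDP-mannose epimerase that serves vitamin C and wall sugar synthesis, stood at 547 and 499 in treated seedlings, against 1049 and 1836 in controls (-1.38). The extensin-like AT1G23720 read 1375 and 1432 under aluminium, against 2501 and 3343 in control seedlings (-1.03), from a probe set that the manufacturer marks as able to bind several transcripts. Besides AT2G45180, the lipid-transfer-type genes AT4G12490 and AT1G62790 were members, at 633 and 217 with aluminium against 1198 and 1139.8 in controls, and at 165 and 396 with aluminium against 996 and 657 in controls.

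Hormones and signalling held 8 members beside the wall and plastid groups, led by the ACC oxidase gene above. SLY2, an F-box protein that passes on the gibberellin signal by removing its repressors, stood at 444 and 389 in treated seedlings, against 981 and 1393 in controls (-1.46). AT5G01950, a leucine-rich repeat receptor-like kinase, read 108 and 147 under aluminium, against 1197 and 627 in control seedlings (-2.63). RALFL34, a small RALF-type signal peptide, stood at 370.4 and 767 in treated seedlings, against 1481 and 1327 in controls (-1.37). Both aluminium arrays lay below both controls in each, as the rule requires of every member. The gap of RALFL34, 0.78, was under the members' median of 0.96. SMZ, an AP2-type repressor of flowering, read 400.3 and 592 under aluminium, against 1139 and 1096 in control seedlings (-1.17). AT2G28060, a beta-type subunit of the energy-sensing SnRK1 kinase, stood at 217 and 42.9 in treated seedlings, against 801 and 682 in controls (-2.69), and was 1 of 2 members in which replicate 2 of aluminium was over 3-fold the lower. The remorin AT3G61260, a protein of plasma membrane domains, had 105 and 209 with aluminium, against 1148 and 667 in controls (-2.43), and the protein phosphatase 2C gene AT4G31860 had 103 and 472 with aluminium, against 819 and 823 in controls (-1.79).

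Membrane traffic held 7 members, with the most negative median among the role groups (-2.32) and the widest distance between the replicate numbers. AT4G35380, another BIG-type exchange factor, read 83.3 and 549.9 under aluminium, against 1300.2 and 1055 in control seedlings (-2.32). AT5G63640, a TOM1-like protein that sorts ubiquitin-marked cargo, stood at 68.7 and 237 in treated seedlings, against 1095 and 765 in controls (-2.67). PRA1.H, a prenylated Rab acceptor, read 54.0 and 234 under aluminium, against 855 and 677 in control seedlings (-2.55). In each the aluminium arrays were over 3-fold apart, with replicate 1 the lower. AtSec20, a SNARE of the route from Golgi to endoplasmic reticulum, had 165 and 492 with aluminium, against 815 and 976 in controls (-1.58). The Rab GTPase-activating protein AT3G49350 had 163 and 560.2 with aluminium, against 952 and 988 in controls (-1.62). The ESCRT-I subunit AT2G36680, which sorts membrane proteins for breakdown, had close aluminium arrays, at 390.5 and 354, against 1582 and 700.5 in controls (-1.46).

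Transport and metabolism held 5 members. SWEET17, a fructose transporter of the vacuole, stood at 86.7 and 472 in treated seedlings, against 976 and 1013 in controls (-2.17). AT1G54730, of the ERD6-like family of sugar transporters, read 128 and 422 under aluminium, against 1397 and 991 in control seedlings (-2.25). NDB1, an alternative NAD(P)H dehydrogenase of mitochondria, stood at 116 and 369 in treated seedlings, against 844 and 625 in controls (-1.72). These 3 again had replicate 1 of aluminium the lower by over 3-fold. UGT76D1, a glucosyltransferase, was one of the tightest members, at 462 and 436 with aluminium, against 883 and 997 in controls (-1.04).

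Functions in RNA and protein held 6 members. OTP87, a pentatricopeptide repeat protein of mitochondrial RNA editing, read 189.8 and 97.9 under aluminium, against 887 and 832 in control seedlings (-2.51). Hsp70-2, a cytosolic chaperone of the heat shock family, stood at 227 and 866 in treated seedlings, against 1616 and 3354 in controls (-2.34). AT5G47550, a cystatin that inhibits cysteine proteases, read 909 and 848 under aluminium, against 2212 and 1784 in control seedlings (-1.16). Of these the cystatin had the closest replicates in aluminium and stayed above background there. The zinc finger gene AT5G18550 stood at 104 and 368 in treated seedlings, against 1075 and 667 in controls, the KH-domain gene AT4G10070 read 111 and 409 under aluminium, against 1009 and 871 in control seedlings, and AT4G27890, a small chaperone of the NudC type, stood at 154 and 465 in treated seedlings, against 1059 and 1109 in controls. Among the brightest 10 members 1 has no role given, AT4G16410, at 1128 and 941 with aluminium, against 2124 and 4089 in controls (-1.50).

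At the border of the 150, the last members were AT1G32470 and AT1G62760, described above, and AT5G55060, at 187 and 653 with aluminium, against 1062 and 1106 in controls, with gaps of 0.70, 0.70 and 0.69. Just outside lay AT2G25980, at 147 and 572 with aluminium, against 1175 and 931 in controls, AT2G28410, at 202 and 381 with aluminium, against 624 and 709 in controls, and AT5G02610, at 821 and 1115 with aluminium, against 1804 and 2217 in controls, each with a gap of 0.69. The values on either side of the border nearly coincided in gap.

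The members came from all 5 chromosomes in shares near those of the eligible probe sets, from 35 of 661 on chromosome 1 and 21 of 403 on chromosome 2 to 44 of 638 (6.9%) on chromosome 5. Chromosome 3 held 30 of 523 and chromosome 4 held 20 of 380. Each member was a different gene. Of the 150, 21 had a symbol in the gene table and 129 a locus name only, 6 were annotated as pseudogenes (57 of the eligible) and 5 had a probe set marked as able to bind several transcripts.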

How the data were processed

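Each deposited value is a linear intensity of a probe set on an array, as the authors made it. GCOS and RMA are named without versions in the submitters' processing notes, and which of them made these values is not given there. On every array the mean was 500.0 once the extreme 2% at either end was dropped, so the arrays were globally scaled. The number of arrays, 4, limits the precision.

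The manufacturer's 64 controls were set aside. Of the probe sets paired with 1 gene, 13436 of 13513 matched a reference table of assembly TAIR10.1 by Entrez identifier, 48 more carried a nuclear locus as their own name, 503 had several genes and 8730 were not listed. limma 3.58.1 in R 4.3.3 was fitted on log2(intensity + 16) over all 22746 plant probe sets with Benjamini-Hochberg adjustment, and was checked on simulated data. Values on this scale understate differences of dim probe sets. Plots used Python 3.11.15 and matplotlib 3.10.9.

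Members, gene lists, classes, tests and alternatives were chosen with earlier results of these data known, and the roles and ribosomal families after the values had been seen. The naming rule took the 12 members with the largest gap, the 10 brightest in controls, up to 4 in each symbol-based class with at least 2 members, the 3 on each side of the border and 2 genes of each marker list. Other genes named were chosen after their values were seen. Alternatives were other normalizations, pseudocounts, control minimums and gaps, a replicate block, and leaving out each array. Arrays with the same number were not treated as pairs in the main fit, since no label pairs them. Their deviations within groups correlated at 0.0867 across probe sets. Even so, hybridization controls were brighter on both arrays numbered 1, and large gaps were most frequent when the arrays were divided by number. Differences by replicate number are therefore given as description only.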

Additional observations from a re-analysis of the deposited data

Results flagged for a closer look

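The hybridization controls, which carry no plant signal, were 2.57 times as bright by geometric mean on aluminium replicate 1 as on the brighter control array. Members read lower on this array than on aluminium replicate 2 in 112 of 150 cases, and the part of this in their values was not tested.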

How the results depend on the processing

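The limma fit called 0 probe sets and 0 members under every alternative run, including the replicate block (0 calls, smallest adjusted p 0.899, 1122 at an unadjusted p under 0.05), a spread that follows the mean (smallest adjusted p 0.300) and leaving out each array, where a lone array is assumed to vary like the other group. With 2 arrays a group and a smallest adjusted p of 0.966, these zeros say nothing of stability. Without aluminium replicate 2 the probe sets at an unadjusted p under 0.05 numbered 2532, and without control replicate 1 they numbered 616, against 1084 with all arrays. Membership depended on the rule. With a control minimum of 300, 46 of the 150 stayed among the 150 largest gaps and 355 probe sets had at least the last member's gap. With a minimum of 1000, 51 stayed and 51 had that gap. With the difference of group means in place of the gap, 80 stayed and 748 had it. Leaving out single arrays kept 22 to 66 members, 22 without control replicate 2, 39 without control replicate 1, 43 without aluminium replicate 2 and 66 without aluminium replicate 1; 330 to 872 probe sets then had at least that gap, since 3 values give larger gaps than 4. Normalization, pseudocount and leaving out probe sets that can bind several transcripts (an alternative added after seeing the data) kept 138 to 148 members. The members' median log2 difference lay between -2.24 and -1.26 with an array left out, nearest to 0 without aluminium replicate 1. With each array left out in turn, 10 members were always kept, among them AT1G12010, GPDHC1, AT1G75870 and AT2G45180, and 2 of the 150 were kept under every setting run. For 27 named members, 0 of 216 alternative values changed sign and 15 moved by more than the spread. The signs were largely fixed by the rule, which set both aluminium arrays below both controls, so they say nothing of stability. Arrays give no depth. Below background on both aluminium arrays lay 86 members, among 130 such eligible probe sets.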

Other observations

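Of 144 members placed in the gene table, 2 pairs were adjacent, AT1G75860 with AT1G75870 and AT5G18540 with AT5G18550, while 2537 placed eligible genes held 270 adjacent pairs. The number of pairs grows faster than the number of genes placed, so these counts cannot be set against each other as shares.

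Probe sets outside the rule, because no single nuclear gene was paired with them, read lower in the same way at times. Of 2554 such probe sets with both controls above 600, 221 (8.65%) had at least the gap of the last member, against 5.76% of the eligible ones, and 22 of the 221 were paired with a plastid gene. In all, 58 of the 2554 were paired with a plastid gene, so that 37.9% of these had such a gap.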
